A study of Mus musculus with 2 samples.

Results

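RNA from the dorsal skin of newborn mice was compared between Mpzl3 null pups (Mpzl3 -/-, channel labelled Cy5) and wild-type littermates (+/+, channel labelled Cy3), both 1 day old (P1), on a single Agilent Whole Mouse Genome array with 2 dyes. It is 1 of the 2 arrays of the study, and the other holds the same pair of genotypes at 9 days of age (P9), with the dyes the same way round. The P1 array gave a value for 17233 of the 18855 genes named on the array, and a gene's value is the mean of its probes. Values are log2 ratios with the null channel as numerator, so that above 0 the null channel was the brighter one, and 1 is a 2-fold ratio. A list of genes is said to be centred on its median. The sources used here do not say whether a channel held 1 pup or a pool, how the null allele was made or which strain the mice were. With 1 array there is no replicate, no dye swap and no test, so dye and genotype cannot be told apart and each value describes this hybridisation only.

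Mpzl3 encodes a membrane protein with an immunoglobulin-like domain, related to myelin protein zero, and it is known for being needed for normal hair and sebaceous glands in mice. Newborn dorsal skin is still building its first hair coat, its barrier has only just met the air, and its dermis lies on fat and a thin sheet of skeletal muscle. Keratinocytes mature from the basal layer through the spinous and granular layers to the cornified layer, while hair follicles grow down into the dermis around a cluster of fibroblasts, the dermal papilla.

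Genes were called higher or lower when the mean of their probes reached 2-fold and those probes shared 1 sign. By this rule 296 genes (1.72% of those measured) were higher and 201 (1.17%) lower in the null channel, 2.88% in either direction, and the median of all genes was 0.06. At P9 the same rule called 2.24% of 18269 genes higher and 0.465% lower, 2.7% in either direction. Probes of the same gene differed with a pooled SD of 0.36 on the log2 scale (1.28-fold), an error that covers probes and not animals. Ratios give no level, so the markers of skin cell types show only balance between the channels. Of 34 with a value, keratinocyte keratins among them, 2 passed 2-fold, the fibroblast proteoglycan gene Dcn on the lower side and the muscle actin gene Acta1 on the higher side. The transcript of the inactive X chromosome, Xist, lay between −1.41 and −1.42 at 3 of its 4 probes and at 0.12 at the other, and the Y-linked gene Uty had its 2 measured probes at −0.08 (−0.075) and 0.74 (0.735). At P9 the 4 Xist probes lay between 2.26 and 4.81, Uty was as low as −3.43, Eif2s3y, also on the Y chromosome, was at −3.98, and Kdm5d, a Y-linked demethylase, at −1.77. Sex-linked transcripts were thus balanced differently on the 2 arrays, and their part in any value below, or in any difference between P1 and P9, was not tested. In skin taken whole, fewer cells of a type and less RNA per cell cannot be told apart.

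The targeted gene and its closest relatives lay near 0. Mpzl3 itself was at −0.21 at P1 and 0.20 at P9 on its 1 probe, and where that probe lies relative to the altered part of the gene is not given here, so the value does not check the label. Mpzl2, which encodes an adhesion protein and lies beside Mpzl3, was at −0.25 and −0.22 on its 2 probes, and Mpzl1 at 0.20. Ferredoxin 1, a mitochondrial electron carrier for steroid and vitamin D enzymes, had all 3 probes below 0, at −0.43, −0.31 and −0.27. Its paralogue Fdx2, which serves iron-sulphur cluster assembly, was at 0.48, and Cyp27b1, which makes active vitamin D, at 0.80 over 2 probes. The 15 measured genes on each side of Mpzl3 in gene order had a median of 0.13 and ranged from −0.56 (Arcn1) to 0.70 (Ift46). Of these 30 genes 18 lay above 0 and 0 passed 2-fold, where 2.88% of all genes were called. With so small a share, 30 genes are too few for the count of calls to tell. Whether ratios within 2-fold lie together on either side of the locus was not tested.

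Of the 7442 genes with at least 2 measured probes, 0.202% were called higher (15) and 0.981% lower (73), and 23 of the 73 were numbered zinc finger genes. The genes best covered by probes were examined next, since 281 of the 296 higher and 128 of the 201 lower genes rested on 1 probe. In 27 of the 7442 (0.363%) every probe was past 2-fold, 2 of them higher (0.0269%) and 25 lower (0.336%). Both higher genes belong to striated muscle. Myh7, the slow myosin heavy chain, had its 2 probes at 1.30 and 1.34, and Smyd1, a muscle histone methyltransferase, at 1.14 and 1.45. On the lower side numbered zinc finger genes, most of them of unknown function, recurred, and Zfp729a was the gene with the most probes, 4 of 4 between −1.42 and −1.04. Outside that family the 2 probes of Yes1, a Src family tyrosine kinase, were at −1.47 and −1.45. Katnbl1, a regulator of the microtubule-severing protein katanin, was at −1.31 on average, and Cd200r1, an inhibitory receptor of myeloid cells, at −1.28. Matr3, a nuclear matrix and RNA-binding protein, averaged −1.25, Washc4, a subunit of the endosomal WASH complex, −1.24, and Ssb, the La RNA-binding protein, −1.19. Pdcd10, a vascular adaptor protein, was at −1.18, Epyc, a cartilage proteoglycan gene, at −1.15, Dynlt3, a dynein light chain, at −1.13 and Ttpa, the transfer protein of vitamin E, at −1.12. Each probe of the 27 genes that was measured at both ages had the same sign at both, except 1 probe each of Epyc and Matr3, which were just above 0 at P9. Called genes in general kept their sign, 273 of the 279 higher and 191 of the 199 lower genes with a P9 value. The dyes lay the same way round on both arrays, so shared signs do not separate genotype from dye. Whether probes of 1 gene overlap in sequence was not examined.

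**Figure D1:**
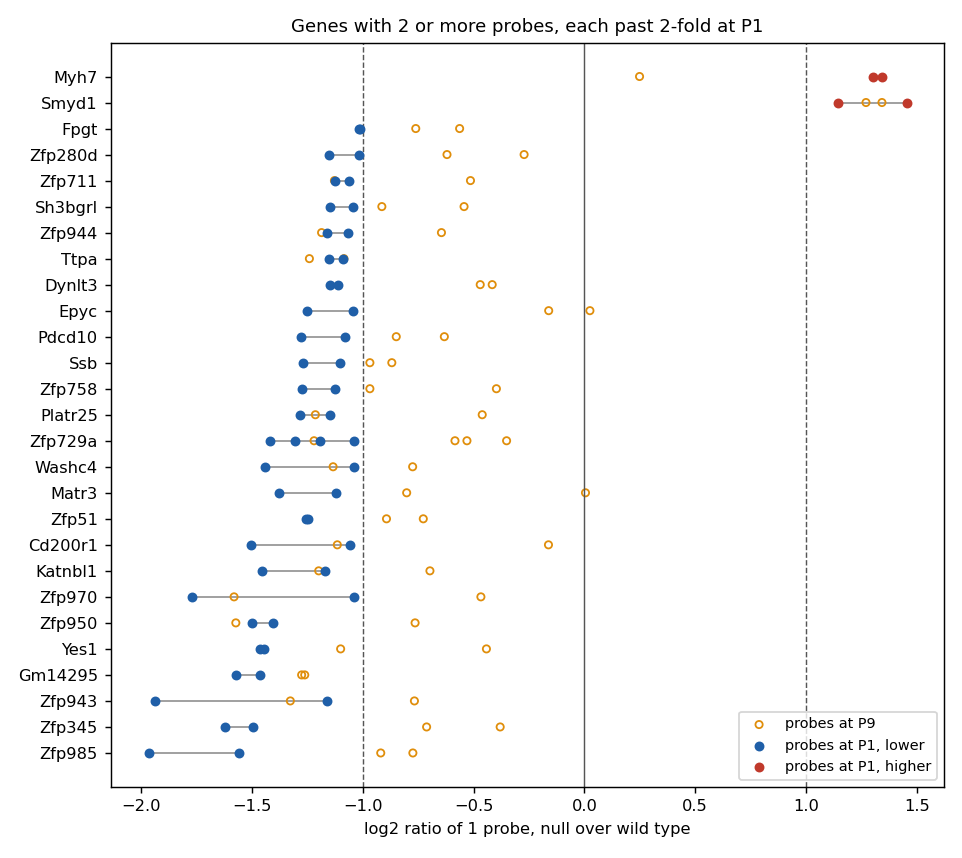
Probe values of the 27 genes with at least 2 measured probes, each past 2-fold at P1. The horizontal axis is the log2 ratio of a probe, null over wild type; filled points are P1 probes joined by a line per gene, open points the P9 probes of the same gene, and dashed lines mark 2-fold. Of these genes 25 lie to the left and only Smyd1 and Myh7 to the right, and the P9 probe of Myh7 lies nearer to 0 than those of Smyd1.

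In the interfollicular epidermis the lists that follow keratinocytes from the basal to the cornified layer lay near the median of all genes. Basal and hemidesmosome genes were centred on 0.12, 11 of 15 lying above 0, led by the basal keratin Krt5 at 0.66. Suprabasal genes had a median of 0.11 over 8 genes, between Calml3, a calmodulin-like protein, at −0.73 and Krt1 at 0.59. Late differentiation genes were centred on −0.03, 6 of 14 lying above 0. Within that list the large S100-fused proteins hornerin (Hrnr) and filaggrin 2 (Flg2) were at −0.90 and −0.66, and the histidine-degrading enzyme Hal and the corneodesmosomal adhesion gene Cdsn at 0.61 and 0.57. None of these 3 lists had a gene past 2-fold. The cross-linking enzymes of the envelope, the transglutaminases, and the peptidylarginine deiminases, which convert arginine to citrulline, were centred on 0.34, 10 of 11 lying above 0 and 0 exceeding 2-fold. Tgm2 was at 0.73 over 3 probes, Padi2 at 0.65, Padi1 at 0.56 and Padi3 at 0.51, and the epidermal transglutaminases Tgm1 and Tgm3 were at 0.34 and 0.45.

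Among envelope precursors the small proline-rich proteins had all 13 members above 0 and 4 of 13 (30.8%) called higher, against 1.72% of all genes. The late cornified envelope genes had a median of 0.02 and 0 of 12 past 2-fold. All 4 called small proline-rich genes rest on 1 probe. Of these, 3 were also past 2-fold at P9, and Sprr3 was the exception, at 2.03 at P1 and −0.32 at P9. Whether probes of this family share signal was not examined. The only member with 2 probes, Sprr2a1, was at 0.34. The promoter of Sprr2k, which was at 1.14 at P1 and 1.05 at P9, is shown because the family lies in 1 cluster and its windows share a motif. The window runs from 250 bases before to 50 after the gene's start, from RefSeq on build GRCm38.p6 (chr3:92432332-92432631, + strand), and capitals mark TGANTCA, the AP-1 site, searched on both strands of which it is its own reverse complement.

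Sprr2k: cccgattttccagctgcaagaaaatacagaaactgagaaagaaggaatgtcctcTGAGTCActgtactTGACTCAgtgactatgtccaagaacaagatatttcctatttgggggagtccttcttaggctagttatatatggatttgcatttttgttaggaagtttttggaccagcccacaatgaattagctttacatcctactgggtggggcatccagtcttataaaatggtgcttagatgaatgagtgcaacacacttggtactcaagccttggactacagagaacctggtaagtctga

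The matches begin 196 and 182 bases before the start. A window with at least 1 match was found for 8 of the 11 measured family members that the table holds (72.7%), against 7.81% of all 32851 windows. The 8 with a match had a median of 0.57 and ranged from 0.08 to 1.14, and the 3 without one, Sprr3, Sprr4 and Sprr2a1, had a median of 0.34 and ranged from 0.19 to 2.03, so the ranges overlapped. A match of letters is a description and not a binding site.

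Genes of cell junctions lay on different sides of 0 by role, a difference that was not tested. The desmosomal cadherins, the membrane-spanning adhesion proteins of the desmosome, were centred on −0.41, 1 of 8 lying above 0, while the plaque proteins that tie them to keratin were centred on 0.19, 5 of 8 lying above 0. Dsg1a was called lower at −1.03, Dsc1 was at −0.99 over 2 probes and Dsc3 at −0.92, and the exception was Dsg3 at 0.10. In the plaque, Jup (plakoglobin) was at 0.75, Evpl at 0.51 and Pkp3 at 0.47, and desmoplakin (Dsp) at −0.34 over 3 probes. At P9 the medians were 0.01 for the cadherins and 0.20 for the plaque. Among tight and gap junction genes 1 of 20 was called, the gap junction protein Gja1 at −1.11. The claudins, the sealing proteins of tight junctions, spread to both sides, with Cldn8 at −0.77 and Cldn1 at −0.42 against Cldn7 at 0.71 and Cldn3 at 0.60, and the list's median was 0.07.

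Barrier lipid genes lay on both sides of 0, with a median of −0.06 and 9 of 23 above 0. The lipases of the late epidermis lay lowest, Lipn called lower at −1.10, Lipm at −0.93 and Lipk at −0.58. The ceramide transporter Abca12 was at −0.42 over 3 probes and glucosylceramide synthase Ugcg at −0.43 over 3. Above 0 were the lipoxygenases Alox12b at 0.93 and Aloxe3 at 0.58. Of the serine proteases and their inhibitors 2 of 28 (7.14%) were called lower, against 1.17% of all genes. These were the membrane proteases Tmprss11e at −1.31 and Tmprss11f at −1.28. The kallikreins of this list, which cleave the adhesion proteins of the cornified layer, lay from −0.55 for Klk7 over 3 probes to 0.84 for Klk10, and the median of all 19 measured Klk symbols was 0.42. Outside the list Klk1b8, of the glandular kallikreins, was called higher at 1.09 (1.03 at P9). Their inhibitor Spink5 was at −0.39. Keratinocyte transcription factors were centred on 0.0015, 13 of 26 lying above 0 and 0 exceeding 2-fold, from the grainyhead factor Grhl2 at −0.39 to the vitamin D receptor Vdr at 0.68.

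The hair follicle showed the highest values in genes of the hair shaft and low values in genes of the dermal papilla. Keratin-associated proteins, which fill the space between hair keratins, had 38 of 40 members above 0 and 14 (35%) called higher, against 1.72% of all genes. Of these 14, 13 rested on 1 probe and 8 were blank at P9. Whether probes of this family share signal was not examined. Krtap3-1, the called member with 3 probes, was at 1.04 at P1 and 1.05 at P9. Genes of the inner and outer root sheath were centred on 0.28, 12 of 16 lying above 0 and 0 exceeding 2-fold, from the stem cell receptor Lgr5 at −0.45 to its relative Lgr6 at 0.64. Over the 2 members with at least 2 probes the median was −0.25. Follicle transcription factors were centred on 0.25, 21 of 25 lying above 0, and Foxe1, a forkhead factor of the follicle, was called higher at 1.37 (0.65 at P9). Runx3 was at 0.87 and Runx1 at 0.63, whereas Tbx18, a marker of the papilla's precursors, was at −0.74, the lowest of the list.

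Dermal papilla genes were centred on −0.28, 19 of 23 lying below 0. The leptin receptor gene Lepr, with 2 probes, was called lower at −1.24 (−0.69 at P9). The proteoglycan versican (Vcan) was at −0.74 over 3 probes, Sox2, a transcription factor of papillae of some hair types, at −0.50, and Igf1 at −0.49 over 3 probes. Growth factors that the papilla sends to the epithelium were also below 0, Fgf7 at −0.49 and Fgf10 at −0.42. Bmp4 at 0.39 and Bmp6 at 0.33 were the highest members. The P9 median of the list was also −0.28.

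**Figure D2:**
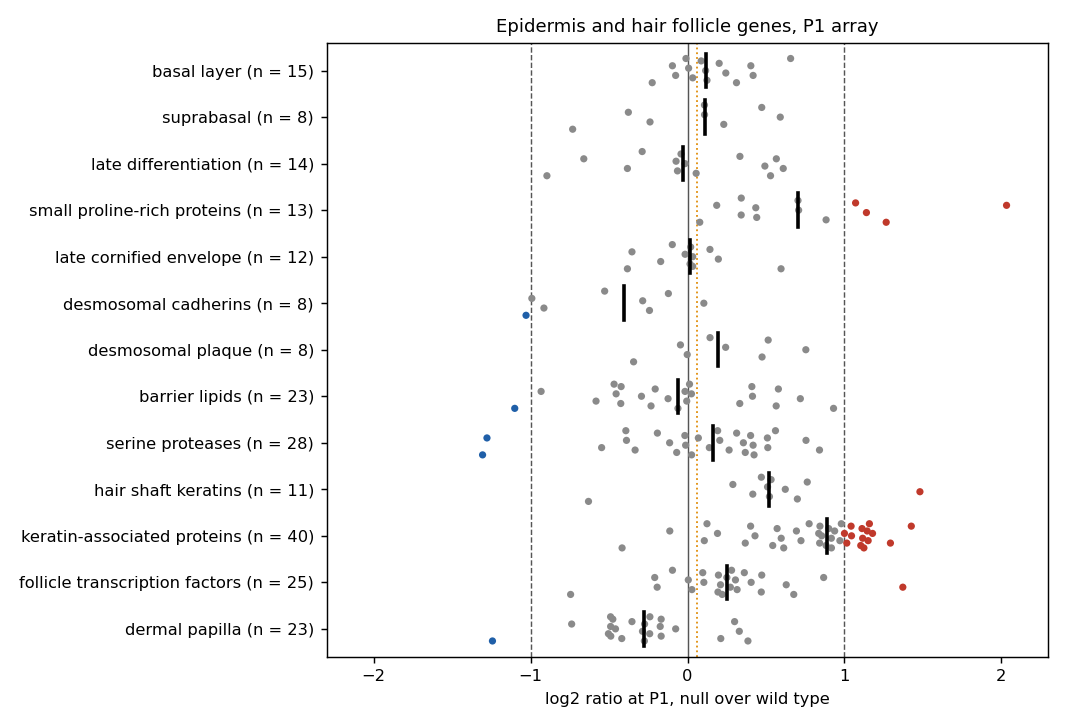
Log2 ratios at P1 of the genes of 13 lists of epidermis and hair follicle. Each point is a gene, black bars are list medians, the dotted line is the median of all genes (0.06) and dashed lines mark 2-fold; red points are called higher and blue points lower. The small proline-rich and keratin-associated proteins lie to the right, and the desmosomal cadherins and dermal papilla genes to the left.

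Signalling genes were then set out by role. Of the Wnt ligands, secreted growth factors that start hair follicles, 15 of 17 lay above 0, with a median of 0.31, from Wnt5a at −0.29 to Wnt7a at 0.70. Their receptors had a median of 0.03 and the secreted inhibitors of −0.15, with 7 of 12 below 0, although the inhibitor with the largest size, Notum, was at 0.95 and the next, Sostdc1, at −0.72. Axin2, a target and inhibitor of the pathway, was the 1 of 51 Wnt genes called, at −1.23. Wls, which carries Wnt proteins to the surface, was at −0.70 over 3 probes and Porcn, which acylates them, at 0.64. Among BMP and TGF-β genes the ligands had a median of 0.12 and the receptors of −0.19, with Bmpr1a at −0.91 over 2 probes. Of the Smads, the intracellular transducers, 4 of 7 were below 0, and the inhibitory Smad7 was called lower at −1.34 while the inhibitory Smad6 was at 0.64. Tgfb1 was at 0.81, the highest of the 41 genes.

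Genes of the Shh, Eda, Fgf and Notch pathways were centred on −0.02, 0 of 30 exceeding 2-fold. The largest sizes were Jag1, a Notch ligand, at −0.68, the hedgehog effector Gli1 at 0.60, Fgf22 at 0.59 and Fgf5 at −0.51. EGF receptor genes had a median of 0.03 and 0 of 15 past 2-fold. The ligands Ereg and Btc were at −0.76 and −0.60 and the sheddases Adam10 and Adam17, which release such ligands, at −0.50 and −0.33, each over 2 probes, whereas the receptor Egfr was at −0.04 over 5 probes.

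**Figure D3:**
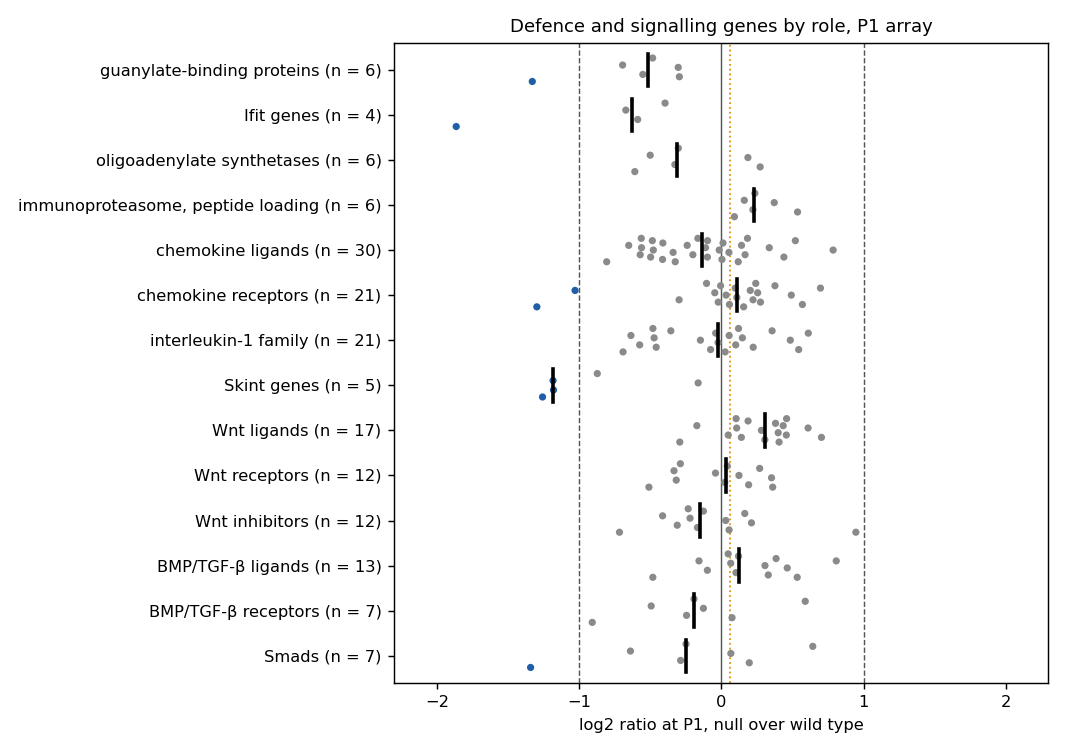
Log2 ratios at P1 of defence and signalling genes grouped by role. Each point is a gene, black bars are medians, the dotted line is the median of all genes (0.06), dashed lines mark 2-fold, and blue points are called lower. Guanylate-binding proteins, Ifit genes and Skint genes lie to the left of 0, immunoproteasome and peptide loading genes to the right.

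In the dermis the low values were those of small leucine-rich proteoglycans, matrix proteins that bind collagen fibrils and growth factors. Of 15 measured members 3 (20%) were called lower, against 1.17% of all genes, and the list's median was −0.20. Over the 4 members with at least 2 probes the median was −0.007. Asporin (Aspn) was at −1.69 at P1 and −1.62 at P9, decorin (Dcn) at −1.56 and −0.45, and Epyc at −1.15 and −0.07. Osteomodulin (Omd) at −0.91, keratocan (Kera) at −0.88 and lumican (Lum) at −0.66 were within 2-fold, and fibromodulin (Fmod) at 0.61 and podocan (Podn) at 0.60 lay on the other side. Collagens had a median of 0.09 and 1 of 43 was called, Col1a2 at −1.12, while Col1a1, which encodes the other chain of type I collagen, was at 0.32 over 2 probes. The basement membrane collagen Col4a5 was at −0.80 and Col4a4, whose chain assembles with that of Col4a5, at 0.69 over 2 probes. Genes of elastic fibres and matrix glycoproteins were centred on 0.16, 0 of 24 exceeding 2-fold, from periostin (Postn) at −0.84 to elastin (Eln) at 0.68. Metalloproteinases and their inhibitors had a median of 0.17, with Mmp3 at −0.79 and Mmp7 and Mmp10 each at 0.80, and dermal fibroblast genes a median of 0.06, between Dpp4 at −0.61 over 3 probes and Pi16 at 0.86.

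Skeletal muscle genes lay above 0 in 34 of 36 cases, with a median of 0.72, and 6 (16.7%) were called higher, against 1.72% of all genes. All 6 myosin heavy chains were above 0, with a median of 0.88, as were all 6 troponins, the calcium switch of the thin filament, with a median of 0.50. Myh2, a fast oxidative myosin, was at 1.55 over 3 probes, the slow myosin Myh7 at 1.32 and its light chain Myl2 at 1.29. Actn3, the alpha-actinin of fast fibres, was at 1.34, Acta1, skeletal actin, at 1.14 and Ryr1, the calcium release channel, at 1.12 over 3 probes. The developmental myosins were lower than these, Myh3 at 0.57 and Myh8 at 0.23 over 4 probes. At P9 0 of the 36 passed 2-fold and the list's median was 0.22, and 5 of the 6 called genes had the same sign. Among genes with at least 2 matched probes, Myh2 (0.35 at P9), the small heat shock gene Hspb7 (1.00 and −0.02) and Myadml2 (0.94 and 0.12) had P1 ratios that exceeded those at P9 by 0.82 to 1.20.

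Genes of muscle metabolism and regulators were centred on 0.54, 22 of 25 lying above 0. The muscle regulator Myog was called higher at 1.09 and glycogen phosphorylase Pygm at 1.01, and Myod1 was at 0.76, while Myf5, an earlier regulator, was at −0.67. Over the 6 members with at least 2 probes the median was 0.16. Genes of glycolysis and lactate transport, some of which also stand in this list, were centred on 0.30, 24 of 30 lying above 0 and 0 exceeding 2-fold. The muscle isoforms Pgam2 and Pfkm were at 0.84 and 0.59, but Pfkl at 0.70, Tpi1 at 0.45 and Gapdh at 0.32 over 3 probes are expressed in many tissues. The muscle paralogue of a ribosomal protein, Rpl3l, was at 1.05. The part of the muscle list's ratios in these values was not tested.

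The promoter of Acta1 is shown for the E-box CAGCTG, a letter motif of the kind that muscle regulators bind, marked in capitals (chr8:123894726-123895025, - strand, GRCm38.p6, 250 bases before to 50 after the start).

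Acta1: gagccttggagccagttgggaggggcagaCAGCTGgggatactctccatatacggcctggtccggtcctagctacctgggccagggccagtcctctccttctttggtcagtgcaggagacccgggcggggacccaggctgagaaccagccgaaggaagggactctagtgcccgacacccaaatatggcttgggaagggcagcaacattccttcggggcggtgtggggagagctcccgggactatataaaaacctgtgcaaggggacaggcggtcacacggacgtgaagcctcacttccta

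The match begins 221 bases before the start, and CAGCTG reads the same on both strands. It was found in the windows of 13 of the 29 measured contractile genes in the table (44.8%), in 44.1% of their 34 windows against 16.3% of all windows. Genes with a match had a median of 0.81 and those without of 0.64, with ranges from −0.15 to 1.29 and from 0.17 to 1.55.

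The lists of white adipocyte and sebaceous gland genes were centred above the median of all genes, and that of cholesterol synthesis below it. White adipocyte genes were centred on 0.40, 20 of 22 lying above 0 and 0 exceeding 2-fold. The proteins of the lipid droplet, Plin4 at 0.85 and Plin1 at 0.66, and the lipase Lipe at 0.82 were highest, while the fatty acid carriers Fabp4 and Cd36 were at −0.48 over 3 probes and −0.27 over 2. Sebaceous gland genes were centred on 0.26, 16 of 22 lying above 0, and Plin5, a lipid droplet protein, was called higher at 1.07. Fa2h, which makes 2-hydroxylated fatty acids, was at 0.68, the melanocortin receptor Mc5r at 0.54 and Scd3 at 0.52. Over the 6 sebaceous members with at least 2 probes the median was −0.15 (−0.145 before rounding), and the list shares Cidea with both adipocyte lists. Cholesterol synthesis genes were centred on −0.04, 0 of 22 exceeding 2-fold, from the regulator Insig2 at −0.95 and the enzyme Idi1 at −0.79 to Mvk at 0.40.

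Genes of the interferon response were low as a list but not in every role. Of 58 measured genes 43 were below 0 and the median was −0.26. In this list 4 genes (6.90%) were called lower, against 1.17% of all genes, and 0 higher. All 6 guanylate-binding proteins, GTPases that attack vacuoles of intracellular microbes, were below 0, with a median of −0.52. All 4 Ifit genes, which bind viral RNA or block its translation, were below 0 too, with a median of −0.63, and the oligoadenylate synthetases were centred on −0.31, 4 of 6 lying below 0. The immunoproteasome subunits and peptide loading proteins went the other way, with all 6 above 0 and a median of 0.23, from Psmb10 at 0.09 to Tapbp at 0.54. Ifit1 was at −1.86 at P1 and −0.59 at P9, Gbp3 at −1.33 and −0.84, and the RNA sensor Ifih1, with 2 probes, at −1.25 and −0.46. Among interferons, receptors and sensors the median was 0.03, and Tlr9, a DNA sensor, was called higher at 1.17 while the kinase Jak2 was at −0.76 over 2 probes.

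The promoters of 3 of the 4 called interferon genes are shown with the core of the interferon-stimulated response element, GAAA and GAAA with any 2 bases between them, or TTTC and TTTC on the other strand, in capitals. They come from RefSeq on GRCm38.p6, each from 250 bases before to 50 after the start, at chr19:34640639-34640938 (+ strand) for Ifit1, chr3:142559794-142560093 (+ strand) for Gbp3 and chr2:62646206-62646505 (- strand) for Ifih1.

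Ifit1: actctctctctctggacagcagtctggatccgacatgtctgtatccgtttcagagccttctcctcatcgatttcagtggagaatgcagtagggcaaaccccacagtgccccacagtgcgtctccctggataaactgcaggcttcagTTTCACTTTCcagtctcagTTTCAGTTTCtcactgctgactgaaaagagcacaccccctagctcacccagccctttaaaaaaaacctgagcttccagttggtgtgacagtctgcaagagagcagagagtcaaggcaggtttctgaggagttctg

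Gbp3: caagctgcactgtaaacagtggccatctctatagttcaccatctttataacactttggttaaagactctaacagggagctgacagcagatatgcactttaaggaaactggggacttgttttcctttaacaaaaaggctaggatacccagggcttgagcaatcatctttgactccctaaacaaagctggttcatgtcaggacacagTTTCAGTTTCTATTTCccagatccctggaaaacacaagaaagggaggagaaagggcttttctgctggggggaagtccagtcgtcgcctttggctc

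Ifih1: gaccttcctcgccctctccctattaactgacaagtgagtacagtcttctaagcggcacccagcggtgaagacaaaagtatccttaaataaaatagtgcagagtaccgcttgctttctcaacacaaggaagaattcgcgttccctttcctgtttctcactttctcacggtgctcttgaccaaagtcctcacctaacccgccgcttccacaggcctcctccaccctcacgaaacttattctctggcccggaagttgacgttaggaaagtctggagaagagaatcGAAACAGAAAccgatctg

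Ifit1 has 2 matches, beginning 104 and 85 bases before the start, Gbp3 has 2 that overlap, at 45 and 39 bases before it, and Ifih1 has 1, at base 33 after it. The core is in 3.44% of all windows. The table holds windows for 41 of the 58 measured interferon genes (70.7%), which is under 80%, so a comparison of genes with and without the motif is void and was not made.

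**Figure D4:**
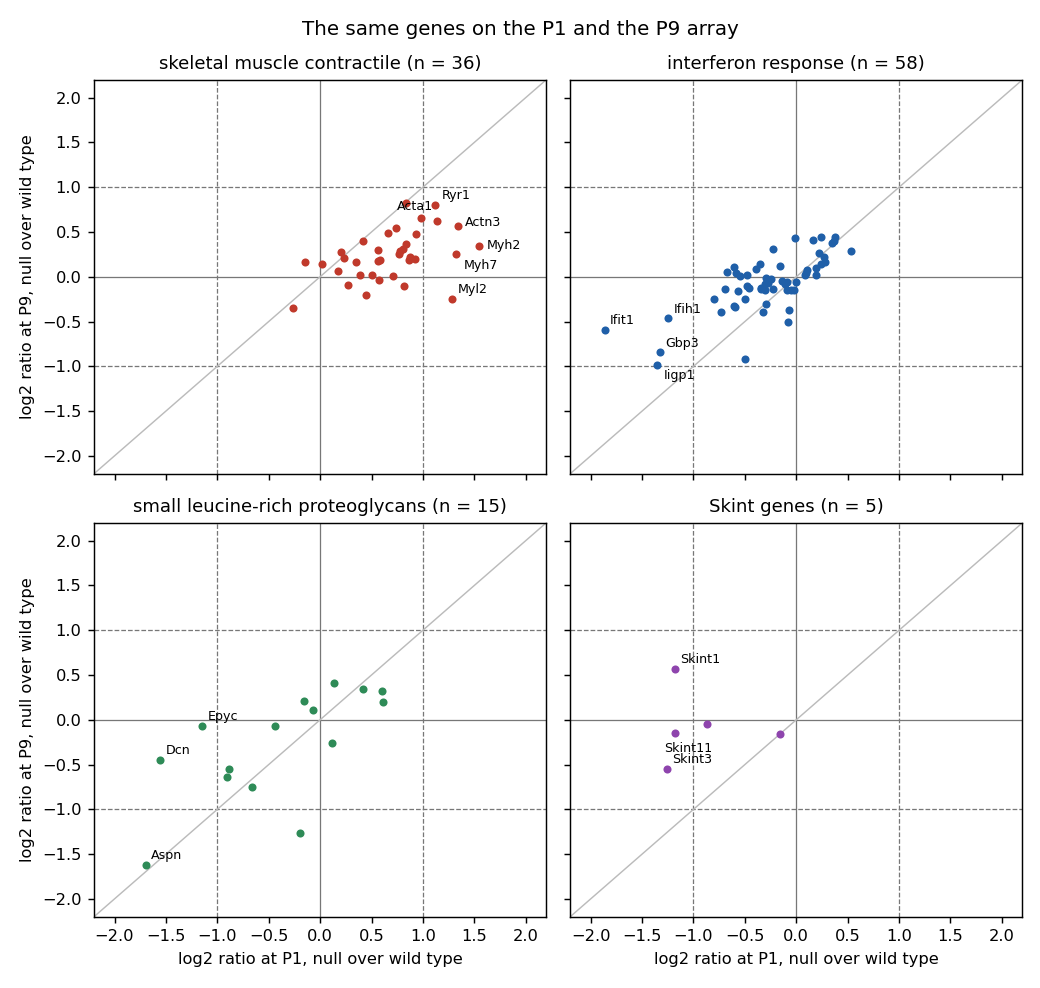
Log2 ratios at P1 (horizontal) against P9 (vertical) for genes of 4 lists, null over wild type. Each point is a gene with a value on both arrays, dashed lines mark 2-fold, the diagonal marks equal ratios, and genes past 2-fold at P1 are named. Called muscle genes lie below the diagonal, called interferon genes above it, and Skint1 lies on opposite sides of 0 at the 2 ages.

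Chemokine ligands, the signals that draw leukocytes in, were centred on −0.14, 19 of 30 lying below 0 and 0 exceeding 2-fold. The receptors were centred on 0.11, 14 of 21 lying above 0, but the 2 called genes were receptors, the monocyte receptors Ccr1 at −1.30 and Ccr2, with 2 probes, at −1.03. The monocyte-attracting ligands Ccl8, Ccl7, Ccl12 and Ccl2 were at −0.65, −0.57, −0.56 and −0.41 at P1, and at 0.61, 0.81, 0.62 and 0.81 (0.815 before rounding) at P9, a difference between ages that was not tested. Other monocyte and macrophage genes were mixed, centred on 0.03, 0 of 26 exceeding 2-fold, from Adgre1, the F4/80 antigen, at −0.76 to Timd4 at 0.46. Genes of the interleukin-1 family were centred on −0.02, 0 of 21 exceeding 2-fold. Il1a, an alarm cytokine of keratinocytes, was at −0.69 over 2 probes, the receptor Il1rl2 of interleukin-36 at −0.64 and the shared receptor chain Il1rap at −0.57 over 5 probes, while Il18bp, which neutralises interleukin-18, was at 0.61.

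Lists of other leukocytes had medians from −0.02 for mast cells to 0.11 for MHC class II and Langerhans cells, with single genes past 2-fold. Among T helper cytokines and related genes 1 of 38 was called, Il5, the eosinophil growth factor, at 1.00, and the receptor gene Il13ra1 was at −0.80 over 2 probes. Of 24 T cell genes 2 were called higher, Cd4 at 1.37 and Il2rb, a chain of the interleukin-2 receptor, at 1.10, each on 1 probe. Over all genes 1.72% were called higher. The receptor complex genes Cd3d, Cd3e and Cd3g were at 0.17 (0.175 before rounding), 0.28 and −0.23. Cr2, the complement receptor of B cells, was at 1.61. Of 19 mast cell genes 2 were called lower, Mrgprb2 at −1.18 and the prostaglandin D synthase gene Hpgds at −1.06, each on 1 probe. Over all genes 1.17% were called lower. The granule proteases Cpa3, Cma1 and Mcpt4 were at −0.45, −0.07 and 0.25. Hamp, the iron hormone hepcidin, was the 1 of 32 antimicrobial and acute phase genes called, at 1.17. Of serpins and stefins, inhibitors of serine and cysteine proteases, 32 of 53 were below 0, the median was −0.15, and the stefins Csta2 and Stfa2 were called lower at −1.55 and −1.19.

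Skint genes, a mouse family of immunoglobulin-like proteins of keratinocytes and thymus of which Skint1 selects the dendritic epidermal T cells, were looked at after their values had been seen. All 5 measured members lay below 0, at −1.26 (Skint3), −1.18 (Skint1), −1.18 (Skint11), −0.87 (Skint4) and −0.16 (Skint9). Of these 3 (60%) were called lower, against 1.17% of all genes. Each member rests on 1 probe, and the family is alike in sequence, so members may share signal. At P9 the same 5 were at −0.55, 0.57, −0.14, −0.05 and −0.15 (−0.155 before rounding), none past 2-fold.

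Melanocyte genes were centred on −0.15, 12 of 20 lying below 0. Kitl, the growth factor that melanocytes and mast cells need, was called lower at −1.01 over 2 probes. Tyrosinase (Tyr) at −0.85, the endothelin receptor Ednrb at −0.74 and Tyrp1 at −0.69 were also below 0, while Slc45a2, a melanosome transporter, was at 0.78. Schwann cell and myelin genes were centred on 0.29, 12 of 16 lying above 0, led by the myelin genes Mag at 0.95 and Mobp at 0.76. Endothelial genes were centred on 0.21, 16 of 22 lying above 0, from Mmrn1 of lymphatic vessels at −0.83 to Plvap at 0.84, and −0.0093 over the 10 members with at least 2 probes.

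Among genes of general cell function most lists lay close to 0 and a few regulators were low. In the circadian clock Nr1d2 was called lower at −1.14, and Clock and Cry1 were at −0.93 over 4 probes and −0.59 over 2, whereas Nr1d1, the paralogue of Nr1d2, was at 0.65 over 3 probes. The list's median was 0.29 with 13 of 21 above 0. Hif1a, the oxygen-regulated transcription factor, was called lower at −1.20 and its target Car9 higher at 1.57, and the other 13 hypoxia genes were within 2-fold. The glucocorticoid receptor Nr3c1 was at −0.89 over 4 probes, and 10 of 13 genes of its target list were above 0. Egr3, an immediate early factor, was called lower at −1.36, and Esco2, a cohesin acetyltransferase of S phase, at −1.20 while Mki67 and Top2a were at −0.18 and −0.23. Respiratory chain subunits were centred on 0.06, 47 of 75 lying above 0, and tricarboxylic acid cycle enzymes on 0.07, and 0 of either passed 2-fold, although Dld, a subunit shared by the dehydrogenase complexes, was at −0.91 over 3 probes. Ribosomal proteins were centred on −0.15, 41 of 64 lying below 0, and Rps21 was called lower at −1.10 over 2 probes.

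The 15 highest and 15 lowest called genes, outside receptors, numbered zinc finger genes and provisional names, were mostly genes with no place in the lists. The higher ones ranged from 3.00-fold to 4.09-fold and all rested on 1 probe. They included the meiosis gene Meiob at 1.98, the homeobox gene Hmx3 at 1.95, the sperm flagellum gene Spag6l at 1.68, the serine protease Prss33 at 1.64, sucrase-isomaltase (Sis) at 1.64, lactoperoxidase (Lpo) at 1.62, the kinase Pak6 at 1.61 and the nicotinic receptor subunit Chrna6 at 1.59. The lower ones ranged from 2.57-fold to 4.26-fold, and 14 of 15 rested on 1 probe. They were led by the junction-associated gene Pof1b at −2.09 and included Tnfaip8, a regulator of cell death, at −1.57, the prefoldin subunit Pfdn4 at −1.53, the kinase Map3k8 at −1.40 and Clca3b, a chloride channel regulator, at −1.40. At P9 6 of the higher and 7 of the lower genes were past 2-fold.

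Among families set aside above, all 85 called olfactory and vomeronasal receptor genes, sensory receptors not known for a role in skin, rested on 1 probe. They were called out of 517 measured (16.4% called higher, against 1.72% of all genes). Of the 41 called numbered zinc finger genes, out of 335 (12.2% called lower, against 1.17% of all genes), 23 had several probes. All 41 had the same sign at P9 and 7 were past 2-fold there. The P9 counts are not particular to this family. Of all 199 lower genes with a P9 value, 191 had the same sign and 44 were called lower there. Major urinary proteins and lipocalins, carriers of small hydrophobic molecules, had all 9 members below 0 with a median of −0.65 (−0.10 in the 1 member with 2 probes, −0.1035 before rounding), and Mup6 and Mup8 were called lower at −1.14 and −1.08. These genes are alike in sequence, so their probes may share signal.

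Genes with at least 2 matched probes that differed most between P1 and P9 were listed next, and these differences were not tested. Lower at P1 than at P9, beside Xist, Ccl7 and Epyc, were the signal regulatory protein gene Sirpb1b (−0.87 and 0.87), the protease inhibitor genes Serpinb3a (−0.66 and 1.05) and Serpinb3c (−0.83 and 0.85), and the amino acid transporter gene Slc6a14 (−0.84 and 0.32). The guanylate-binding protein gene Gbp9 was at −0.52 and 0.60, the natriuretic peptide gene Nppb at −0.008 and 1.06, and Erbb4, a neuregulin receptor, at 0.38 and 0.62, with a difference of −1.003 on its 2 matched probes. These are genes of varied function. Higher at P1, beside Uty and the muscle genes above, were the immunoglobulin heavy chain gene Ighm (0.64 and −0.45), the thioesterase gene Acot11 (1.25 and 0.48), the potassium channel gene Kcnk3 (0.995 and 0.22), the glycerol phosphate dehydrogenase gene Gpd1 (0.42 and −0.36), Upk3bl (0.52 and −0.27) and Vat1l (0.34 and −0.43).

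The ratios also followed the genomic span of the gene, the distance from its first to its last base in the RefSeq table. In 5 classes of near equal size the median was 0.19 in the shortest (82 to 5952 bases), then 0.14, 0.07 and −0.03, and −0.05 in the longest (from 64997 bases). Across genes, which share 1 hybridisation and are not independent, Pearson's r with log10 span was −0.22. Genes called higher made up 4.63% of the shortest and 0.671% of the longest class, and genes called lower 0.553% and 1.20%. At P9 the class medians were 0.11 in the shortest and −0.03 in the longest. Relative to its span class, the median was 0.70 for keratin-associated proteins, 0.51 for small proline-rich proteins, 0.63 for contractile genes, −0.33 for interferon genes, −0.37 for desmosomal cadherins and −0.27 for small leucine-rich proteoglycans, so the medians of these lists stayed on the same side of 0. Immunoproteasome and peptide loading genes were at 0.06 in place of 0.23, with 4 of 6 above 0, while guanylate-binding proteins were at −0.59 and Ifit genes at −0.76. Follicle transcription factors were at 0.06 in place of 0.25, with 19 of 25 above 0. The chemokine ligands were at −0.33 in place of −0.14, and the late cornified envelope was at −0.17 in place of 0.02, on the other side of 0. Such a change of side was seen in 20 of 78 lists, all with medians near 0 as deposited.

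**Figure D5:**
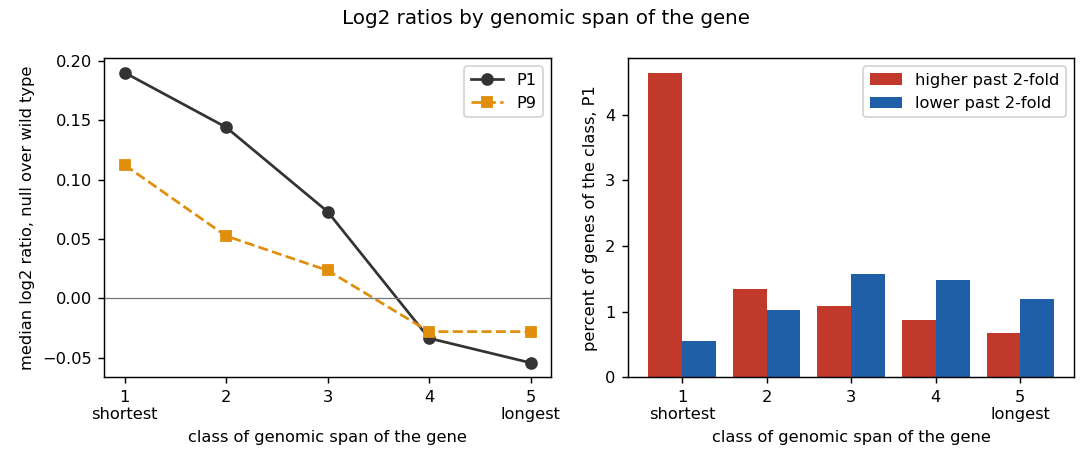
Left, the median log2 ratio of genes in 5 classes of genomic span, from shortest to longest, for P1 (circles) and P9 (squares). Right, the percent of genes of each class called higher or lower past 2-fold at P1. The P1 median is 0.19 in the shortest and −0.05 in the longest class, and the percent called higher is greatest in the shortest, at 4.63%.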

How the data were processed

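The values are log2 ratios of null (Cy5) over wild type (Cy3), per the labels and the authors' deposited value table; the log base was inferred from the values, since the largest size, 4.898, would be 29.8-fold in base 2 and 79067.9-fold in base 10. RNA was extracted from dorsal skin, amplified, coupled to the dyes and hybridised to an Agilent Whole Mouse Genome 4x44K array, per the labels' protocols. For background correction, dye normalization and the rule behind the blank rows (11.3% at P1), no method is given in the sources used here; intensities, hence signal over background, were not analysed here.

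Of 39212 rows, 31337 probes name 1 gene, 40 name several and were left out, 7744 have no gene name and 91 are controls. Of the named probes 31210 matched the RefSeq table of GRCm38.p6, which also gave chromosomes, spans and promoters. A gene's value is the mean of its probes. A gene was called at a mean of at least 2-fold with all probes of 1 sign. No test was made. Python 3.11.15, numpy 2.4.6, pandas 2.3.3 and matplotlib 3.10.9 were used. The code that makes the calls was run on simulated probe values with known changes. That simulation held no dye or span effect, so it does not check the calls on this array. Columns of other samples in the table numbered 0.

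Genes named were drawn from a rule, and not every gene it allows is named: Mpzl3, the 15 highest and 15 lowest called genes, genes with at least 2 probes each past 2-fold, up to 8 called or otherwise up to 4 largest members of each list, members that define a role, the 10 most unlike P9 each way, and genes whose sequence is printed. Some further list members were named after their values had been seen. The members, lists and rules were chosen with earlier results of these data known, and lists share members. Alternatives were another threshold, the median of probes, at least 2 probes, probes measured on both arrays, no rule on signs, centring, scaling, leaving out receptors and zinc finger genes, span classes and the difference P1 minus P9.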

Additional observations from a re-analysis of the deposited data

Results flagged for a closer look

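A pair of genes called lower at P1 had a ratio on the other side of 0 at P9 by more than the SD between probes. Skint1, which selects dendritic epidermal T cells, was at −1.18 (−1.183) at P1 and 0.57 (0.572) at P9. Stfa2, a cysteine protease inhibitor of the stefin A family, was at −1.19 (−1.188) at P1 and 0.42 (0.421) at P9. Each rests on 1 probe and 1 array per age, and the difference between the ages was not tested.

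Probes with no gene name in the table were used in no comparison. Of the 6286 with a value at P1, 6.63% (417) were past 2-fold, 153 higher and 264 lower, against 4.08% of 28377 probes that name a gene and 0 of 81 control spots. The lowest of them was at −4.90 (−4.898), with 0.09 at P9, and the highest at 2.16, with 1.28 at P9. The genes these probes detect were not examined here.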

How the results depend on the processing

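No paired analysis was possible because each age has 1 array. The counts of 296 higher and 201 lower genes became 1564 and 1193 at 1.5-fold, 37 and 17 at 3-fold, 15 and 73 over genes with at least 2 probes, and 160 and 112 after centring and scaling to the spread shared by both arrays; the other 5 settings kept both within 1.5 times. Over genes with at least 2 probes the median was 0.34 for small proline-rich proteins (1 gene), 0.16 for muscle metabolism, −0.25 for the root sheaths, −0.15 (−0.145) for sebaceous gland, −0.0093 for endothelial genes and −0.10 (−0.1035, 1 gene) for major urinary proteins; in all 24 of 77 list medians had the other sign there, 21 of them with a P1 median within 0.2 of 0. P1 minus P9 is another quantity, and its list median had the opposite sign to the P1 median in 30 of 78 lists. In 8 of them the P1 median was over 0.2 in size, namely small proline-rich proteins (−0.26, −0.255 before rounding), keratin-associated proteins (−0.042), olfactory and vomeronasal receptors (−0.0675), root sheaths (−0.15), brown adipocyte (−0.072), sebaceous gland (−0.20), glucocorticoid targets (−0.0154) and taste receptors (−0.087). The other 22 had P1 medians nearer to 0, and the largest differences among them were the late cornified envelope (−0.58) and neutrophil genes (−0.43). Of single genes, only 287 drawn from the naming rule were followed, and not all called genes. Among these 287, P1 minus P9 was opposite to the P1 call for Axin2 (0.33), Col1a2 (0.08), Cr2 (−0.17), Esco2 (0.26), H1f5 (−0.011), Il2rb (−0.061) and Krtap4-7 (−0.042). It was also opposite for Mup6 (0.13), Smyd1 (−0.008), Sprr2g (−0.17), Sprr2j-ps (−0.11), Tas2r118 (−0.37), Tlr9 (−0.058) and Ttpa (0.041). Called genes that were not followed can also go this way, such as Acnat1, at 1.20 at P1 and 1.71 at P9. Under the mean over members, centring, the median of probes, probes measured on both arrays, and span classes (chosen after seeing the data), every list median moved by less than the SD between probes, and the sign differed in 6, 15, 0, 3 and 20 of 78 lists, each with a reported median within 0.11 (0.10825) of 0. With no replicate, no setting measures the spread between animals.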

Other observations

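Several gene families were described after a scan of all 119 symbol families with at least 15 measured genes, so their choice rests on their values. Lectin-like receptors of the Clec family, which bind sugars on microbes and dying cells, were centred on −0.23, 19 of 28 lying below 0. Clec12b, an inhibitory receptor, was called lower at −1.31 and Clec4a3 at −1.11, and Clec18a was called higher at 1.14. These are 10.7% of the family, against 2.88% of all genes called in either direction. Clec7a, the receptor for fungal glucans also known as dectin-1, was at −0.73. The scan's family medians at P9 were computed on the other array, and for the Clec genes the P9 median was 0.10.

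Semaphorins, guidance signals for axons and vessels, were centred on 0.41, 14 of 19 lying above 0 and 0 exceeding 2-fold. The transmembrane members Sema6b and Sema4c were at 0.87 and 0.79, while the secreted members Sema3d and Sema3c were at −0.95 and −0.82. Autophagy genes of the Atg family, which build the membrane that encloses cell contents for breakdown, were centred on −0.24, 10 of 17 lying below 0 and 1 called lower.

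By chromosome the lowest median was −0.21 on chromosome Y, over 7 genes. The other medians ran from −0.11 on chromosomes 13 and X to 0.15 on chromosome 11 and 0.20 on chromosome 7. On chromosome X 2.84% of genes were called lower and on chromosome 18, 2.80%, against 1.17% of all genes. On chromosomes 7 and 17, 2.67% each were called higher, against 1.72% of all genes. Keratin genes of the Krt family had a median of 0.43 over 40 genes, Serpinb genes one of −0.27 (−0.265) over 22 and centrosomal Cep genes one of −0.21 over 38.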
